A study of Mus musculus with 6 samples.

Results

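The genes described here are 45 protein-coding genes of the bone morphogenetic protein (BMP) and transforming growth factor beta (TGF-beta) pathways, taken by symbol from the 21883 genes that RefSeq annotates as protein-coding on chromosomes 1 to 19, X and Y of GRCm38. All 45 symbols were found. By role they were 10 BMP-type ligands, 7 ligands of the TGF-beta, activin and Gdf11 kind, 1 ligand-processing protease (Bmp1), 11 receptors, 8 Smads, 4 secreted antagonists and 4 Id genes. Open chromatin (ATAC-seq) and histone H3 lysine 27 acetylation (H3K27ac ChIP-seq, a mark of active promoters and enhancers) were mapped in neurons sorted by GFP from dorsal root ganglia of Runx3-BAC-GFP-CB6 transgenic mouse embryos at E11.5, which the labels call TrkC proprioceptive neurons. There were 2 samples each of ATAC, H3K27ac and input DNA, from 50000 fixed cells each. All samples share this genotype, stage and sort, so no condition was compared, and the sort rests on the reporter's activity. The 2 peak lists are consensus lists over the replicates of an assay and hold positions only. No value per sample, spread between replicates or sequencing depth is therefore known, no test was made, and counts over the members are set beside the same counts over all genes.

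Ligands of these families are secreted dimers that bring type I and type II receptor kinases together. The receptors phosphorylate Smad proteins, Smad1, Smad5 and Smad9 for BMPs and Smad2 and Smad3 for TGF-beta and activin, which join Smad4 and enter the nucleus. Smad6 and Smad7 inhibit the pathway, Noggin, Chordin, Gremlin and Follistatin bind ligands outside the cell, and the Id genes are well-known BMP targets that encode inhibitors of basic helix-loop-helix factors. In the embryo, BMPs from the dorsal neural tube and ectoderm take part in forming the neural crest, from which sensory neurons of these ganglia arise.

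The ATAC list held 43739 peaks (median width 217 bp) and the H3K27ac list 19928 (median 1036 bp). Markers of the labelled cells were mostly acetylated at an end or inside the gene. Of 8 sensory neuron markers, 5 had H3K27ac at a gene end (62.5%, beside 49.3% of all genes). At an end or inside the gene 7 had it (87.5%, beside 55.5%). Ntrk3, which encodes TrkC, had H3K27ac inside but no peak of either kind at an end. Runx3, after which the reporter is named, had H3K27ac inside and an open end without it. Avil had no peak of any class. Of markers of other cells, 0 of 6 endothelial, 1 of 6 mesenchymal or mural, 2 of 6 blood and 5 of 6 glial or neural crest genes had H3K27ac at an end. At an end or inside the gene the counts were 1, 1, 3 and 5 in the same order. Both marks lay at an end of 0, 1, 0 and 3 of them. The last group is named again beside the Id genes.

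The pathway split by role at the gene ends, where a peak counts if it touches a window reaching 1 kb to each side of the annotated gene's first or last base. Receptors, Smads and Id genes were almost all open and acetylated, whereas no BMP-type ligand carried H3K27ac at an end. Over all members, 36 of 45 (80.0%) had an ATAC peak at an end, beside 60.4% of all protein-coding genes. H3K27ac lay at an end of 26 members (57.8%), beside 49.3% of all genes. The same 26 had both marks, beside 47.8% of all genes. A further 10 members (22.2%) were open without H3K27ac, beside 12.6% of all genes, and 9 had neither mark, beside 38.1%. Of the open members 72.2% were acetylated, close to the 79.1% of all open genes. For H3K27ac the total thus lay near that of all genes, while the counts differed by role. Receptors and Smads together were open in 19 of 19 cases and acetylated in 17, the 17 ligands in 9 and 3. Of 10 BMP-type ligands 6 were open and 0 acetylated, where 60.4% and 49.3% of all genes were.

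**Figure D1:**
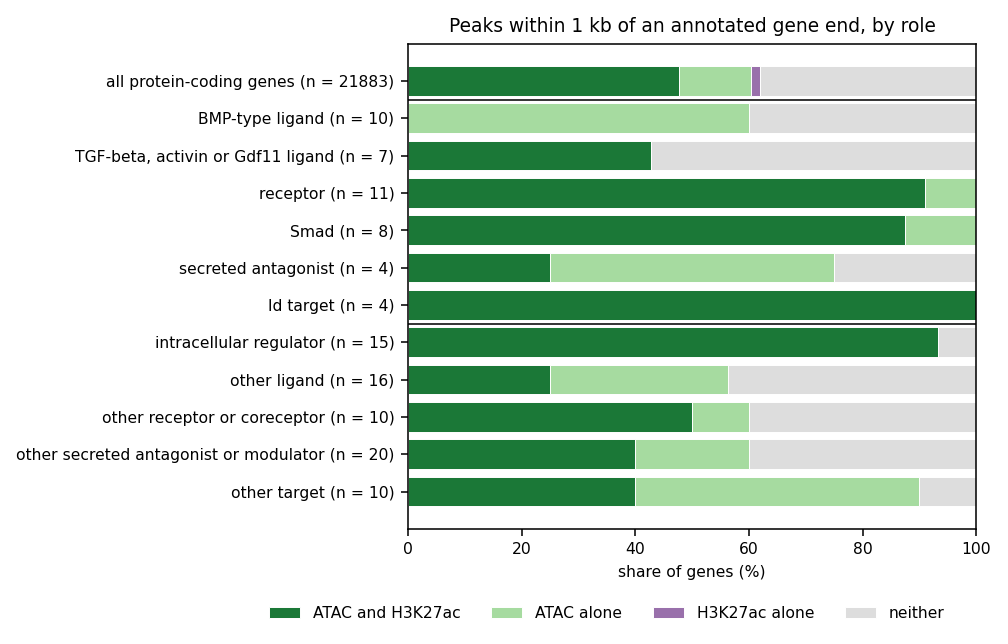
Share of genes (%, horizontal axis) with both ATAC and H3K27ac, ATAC alone, H3K27ac alone or neither within 1 kb of an annotated gene end, for all 21883 genes, the members by role without the single protease, and other pathway genes. The dark bar of both marks is missing for the 10 BMP-type ligands, is near full for the 11 receptors and 8 Smads, and fills the row of the 4 Id genes.

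Promoter sequences show the DNA under these peaks. RefSeq promoters on GRCm38.p6 were at hand for 30 of the 45 members, 35 promoters in all, and the 250 bases before the annotated start were read. Those printed are the Id promoters at hand, the receptor, Smad and ligand with the widest H3K27ac at an end, and, chosen after their values were seen, Smad9 and Grem1, whose 250 bases lay within ATAC peaks but outside H3K27ac. Capitals mark GGCGCC, a GC-rich Smad motif that reads the same on both strands, and CAGAC, a Smad motif that reads GTCTG on the other strand. Both were searched on both strands, and they may share bases. Each line is written 5′ to 3′ on the gene's strand.
Id2, minus strand, chr12:25096093-25096342: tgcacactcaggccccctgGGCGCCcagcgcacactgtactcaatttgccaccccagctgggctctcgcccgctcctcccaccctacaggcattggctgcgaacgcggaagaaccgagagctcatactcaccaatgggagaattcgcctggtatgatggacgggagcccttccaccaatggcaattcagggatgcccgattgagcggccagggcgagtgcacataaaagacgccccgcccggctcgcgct
Id3, plus strand, chr4:136143572-136143821: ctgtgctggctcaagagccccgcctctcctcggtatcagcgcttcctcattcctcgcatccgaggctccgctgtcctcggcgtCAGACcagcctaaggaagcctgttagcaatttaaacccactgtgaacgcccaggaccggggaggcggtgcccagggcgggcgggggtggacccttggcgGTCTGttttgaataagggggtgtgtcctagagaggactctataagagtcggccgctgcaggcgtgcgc
Id4, plus strand, chr13:48260866-48261115: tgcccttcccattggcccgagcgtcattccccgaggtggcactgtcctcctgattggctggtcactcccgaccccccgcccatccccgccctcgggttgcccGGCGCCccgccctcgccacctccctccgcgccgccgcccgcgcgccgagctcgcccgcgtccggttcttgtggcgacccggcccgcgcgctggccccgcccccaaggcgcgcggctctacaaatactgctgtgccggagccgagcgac
Acvr2a, plus strand, chr2:48813859-48814108: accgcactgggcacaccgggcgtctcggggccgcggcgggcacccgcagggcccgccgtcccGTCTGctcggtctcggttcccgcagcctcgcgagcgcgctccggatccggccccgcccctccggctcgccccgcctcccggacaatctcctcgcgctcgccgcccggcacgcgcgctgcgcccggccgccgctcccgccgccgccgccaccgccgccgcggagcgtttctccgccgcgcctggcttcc
Smad1, minus strand, chr8:79399429-79399678: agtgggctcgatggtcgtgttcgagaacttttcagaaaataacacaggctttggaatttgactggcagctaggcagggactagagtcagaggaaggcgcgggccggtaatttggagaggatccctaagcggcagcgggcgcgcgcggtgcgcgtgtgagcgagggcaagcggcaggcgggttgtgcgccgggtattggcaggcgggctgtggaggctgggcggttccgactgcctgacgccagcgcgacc
Gdf11, minus strand, chr10:128891719-128891968: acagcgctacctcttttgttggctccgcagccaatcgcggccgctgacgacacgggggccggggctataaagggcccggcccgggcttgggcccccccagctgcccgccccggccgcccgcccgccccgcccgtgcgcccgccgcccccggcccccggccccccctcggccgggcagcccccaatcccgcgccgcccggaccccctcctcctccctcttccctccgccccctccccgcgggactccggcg
Smad9, plus strand, chr3:54755332-54755581: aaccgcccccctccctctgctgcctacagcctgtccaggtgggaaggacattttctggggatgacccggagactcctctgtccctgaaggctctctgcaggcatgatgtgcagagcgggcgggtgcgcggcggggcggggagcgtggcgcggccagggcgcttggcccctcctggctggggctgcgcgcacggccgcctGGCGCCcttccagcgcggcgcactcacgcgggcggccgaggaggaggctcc
Grem1, minus strand, chr2:113758649-113758898: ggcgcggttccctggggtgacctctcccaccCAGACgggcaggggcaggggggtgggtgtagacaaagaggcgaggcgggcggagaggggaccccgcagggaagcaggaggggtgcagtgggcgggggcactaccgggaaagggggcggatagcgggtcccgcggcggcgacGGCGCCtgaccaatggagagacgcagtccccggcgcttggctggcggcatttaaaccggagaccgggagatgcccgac

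The ATAC peaks covered all 250 bases at Id2, Id4, Acvr2a, Smad9 and Grem1, 206 at Id3, 176 at Smad1 and 105 at Gdf11. H3K27ac covered all 250 at Id2, Id3, Id4, Acvr2a, Smad1 and Gdf11 and none at Smad9 and Grem1. GGCGCC stood in 9 of the 35 member promoters (25.7%), beside 12.3% of 21262 promoters of protein-coding genes. CAGAC stood in 13 (37.1%), beside 40.8%. The 35 include overlapping promoters of Smad5 and of Bmpr1b. Of the printed promoters, Id2, Id4, Smad9 and Grem1 hold GGCGCC, so it occurs with and without acetylation, and Id3 holds CAGAC at 2 places. The longer Smad palindrome GTCTAGAC was in none of the 35 and in 0.183% of all promoters. These matches describe letters and do not show binding. In base composition, the 12 receptor promoters had a median of 68.4% G and C and 23 CpG dinucleotides in 250 bases, the 7 Smad promoters 66.8% and 25, and the 5 of BMP-type ligands 63.2% and 11. The 3 Id promoters had 62.8% and 18, the 6 of the other ligands 60.8% and 14.5, and the 2 of antagonists 75.0% and 26. In G and C, the acetylated Id promoters thus lay near those of the BMP-type ligands. The median over all promoters was 55.6% and 10. The part of base composition in the share with GGCGCC was not tested.

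BMP-type ligands had open ends without the active mark or no peak there at all. Bmp2 had 2 ATAC peaks at an end, 316 and 371 bp wide, and Bmp7 had 2 of 178 and 224 bp. Bmp3 had 1 of 759 bp, wider than the widest at 92.1% of open genes, and Gdf6 had 1 of 460 bp. Thus a lack of H3K27ac went with both wide and narrow open regions. At Bmp6 the peak of 349 bp ended 408 bp before the annotated start. The only ATAC peak at an end of Gdf7 lay 3244 bp downstream of the annotated start, at the far end of the gene. Bmp4, Bmp5, Bmp10 and Gdf5 had no peak of either kind at an end. Bmp4 held 1 ATAC peak inside the gene, 3077 bp from its start. Bmp5 held 1 H3K27ac peak of 470 bp inside, without ATAC, and had an acetylated ATAC peak of 149 bp outside, 9965 bp from an end. Bmp2 had an H3K27ac peak of 414 bp outside the gene, 10614 bp from an end and without ATAC. Bmp10, a ligand best known from the heart, had no peak of any class, the only such member beside 23.8% of all genes.

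The 7 ligands of the TGF-beta, activin and Gdf11 kind were mixed. Gdf11, a relative of myostatin, had 2 ATAC peaks of 363 and 165 bp at an end, under an H3K27ac peak of 4398 bp at chr10:128888595-128892992, wider than the widest at 98.1% of acetylated genes. Tgfb3 had ATAC of 316 bp and H3K27ac of 1808 bp at an end. Inha, the inhibin alpha subunit, counted as acetylated, but its H3K27ac peak stopped 889 bp before the annotated start, inside Obsl1, an end of which lies 591 bp from that of Inha. Which gene those peaks belong to was not tested. Tgfb2 had no peak at an annotated end, yet its annotated start in the promoter table lies 3708 bp inside the gene span. An ATAC peak of 488 bp and an H3K27ac peak of 2000 bp began 311 and 285 bp downstream of that start. Inhba, the activin A subunit, was open without H3K27ac at its start, which lies 7595 bp inside the span, with ATAC peaks 21 and 439 bp downstream. Tgfb1 had 1 ATAC peak, 2280 bp downstream of its start, and Inhbb 4 distal ATAC peaks, none acetylated. The processing protease Bmp1, which is no ligand, had both marks at an end, with ATAC of 951 bp and H3K27ac of 1615 bp. An end of Sftpc lies 225 bp from that end.

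**Figure D2:**
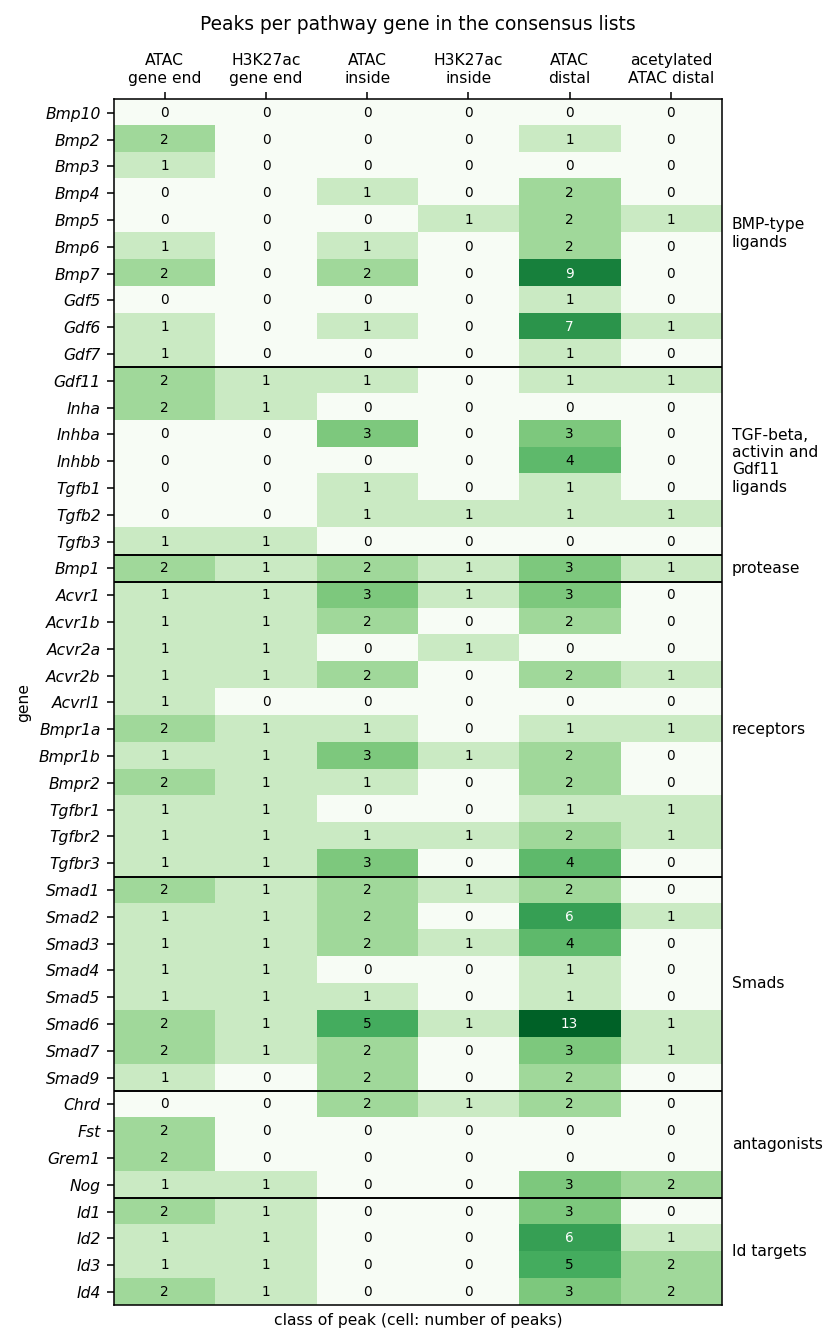
Number of peaks (cell values) at gene ends, inside the gene and at distal elements for each of the 45 members (rows, by role), with darker cells for more peaks. A distal peak inside a gene counts in both the inside and the distal column. The second column is 0 in every row of the BMP-type ligands and 1 in all but Acvrl1 among receptors and all but Smad9 among Smads.

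Of the 11 receptors, 10 had both marks at an end. Among the type II receptors, which bind the ligands and activate the type I receptors, H3K27ac was 3251 bp wide at Acvr2a, 2818 bp at Bmpr2, 1960 bp at Acvr2b and 729 bp at Tgfbr2. Among the type I receptors it was 2513 bp at Acvr1b, 1865 bp at Bmpr1a, 1726 bp at Acvr1, 1725 bp at Tgfbr1 and 322 bp at Bmpr1b. Receptors of the BMP and of the TGF-beta and activin branch thus overlapped in width. The coreceptor Tgfbr3 had H3K27ac of 1229 bp. Bmpr1b was the narrowest among members, with only 2.43% of acetylated genes narrower, and the annotated starts in the promoter table lie at least 187321 bp from the end that carried both marks. A separate H3K27ac peak of 455 bp lay over 2 of its 3 starts, without ATAC. The exception was Acvrl1, which encodes ALK1, a receptor known from blood vessels. It had 1 ATAC peak of 268 bp at an end, no H3K27ac and no other peak. Of the 6 endothelial markers 0 had H3K27ac at an end and 1 (Pecam1) had it inside. What the cell types present contributed to the state of Acvrl1 was not tested. Acvrl1 is not in the promoter table, so whether its open end is the start was not known here. The widest ATAC peak at an end of each receptor ranged from 268 bp at Acvrl1 to 997 bp at Bmpr2. An end of Upp2 lies 511 bp from the end of Acvr1 that carried both marks.

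All 8 Smads were open at an end and 7 were acetylated. The exception was Smad9, of the BMP branch, with an ATAC peak of 446 bp over its start and no H3K27ac peak of any class. The other BMP-branch Smads differed in width, with H3K27ac of 5002 bp at Smad1 (chr8:79395006-79400007) and 1484 bp at Smad5. The TGF-beta-branch Smads had 1468 bp at Smad2 and 1296 bp at Smad3, and the shared partner Smad4 had 1712 bp. The inhibitory Smads, themselves known targets of the pathway, had 4266 bp at Smad7 and 2695 bp at Smad6. So Smad1 and Smad7 stood above the other Smads, wider than the widest at 98.6% and 97.9% of acetylated genes, while the others lay between 48.8% and 91.2%.

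Of the 4 secreted antagonists, 1 had H3K27ac at an end and 2 at an end or inside the gene, beside 49.3% and 55.5% of all genes. Of their 5 distal ATAC peaks 2 were acetylated, both at Nog. Fst, which encodes the activin-binding Follistatin, had ATAC peaks of 390 and 123 bp at an end and no H3K27ac. Grem1 had ATAC peaks of 484 and 316 bp, the wider over its start, and no H3K27ac. Neither gene had another peak. Nog, which encodes Noggin, had an ATAC peak of 198 bp and an H3K27ac peak of 408 bp that did not overlap. Its nearest acetylated open elements were 169 and 451 bp wide, with midpoints 1306 and 2092 bp from an end. Both overlapped the same H3K27ac peak of 1294 bp, the element of 169 bp only at that peak's edge. Chrd, which encodes Chordin, had no peak at an annotated end, but its start in the promoter table, 1702 bp inside the span, lay under an ATAC peak of 284 bp and an H3K27ac peak of 742 bp. The count of 1 acetylated antagonist therefore rests on Nog, and with annotated starts in place of ends it was Chrd that counted, as Nog is not in the promoter table.

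All 4 Id genes had both marks at an end, and their H3K27ac was broad. The peak was 6644 bp wide at Id2 (chr12:25094591-25101234), 5820 bp at Id3 (chr4:136139513-136145332), 5034 bp at Id1 (chr2:152734415-152739448) and 3195 bp at Id4 (chr13:48259915-48263109). Of acetylated genes, 99.4%, 99.1%, 98.6% and 95.1% had a narrower widest peak. These genes are short, from 1160 bp for Id1 to 4913 bp for Id4. At Id2 and Id3 most of the peak lay before the gene, from -5142 to 1501 bp and from -4309 to 1510 bp relative to the start. At Id4 it ran from -1201 to 1993 bp. The open regions at these ends were not broad. The widest ATAC peak at an end was 255 bp at Id3, 319 bp at Id1, 390 bp at Id2 and 487 bp at Id4. The median over all open genes was 431 bp. At Id2 a further ATAC peak under the same H3K27ac peak, outside the 1 kb window, was 443 bp wide. Each of the 4 H3K27ac peaks overlapped 2 ATAC peaks. Id genes are also active in dividing neural crest and glial cells, and 5 of 6 glial or neural crest markers had H3K27ac at an end. What such cells contributed to the Id signal was not tested.

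**Figure D3:**
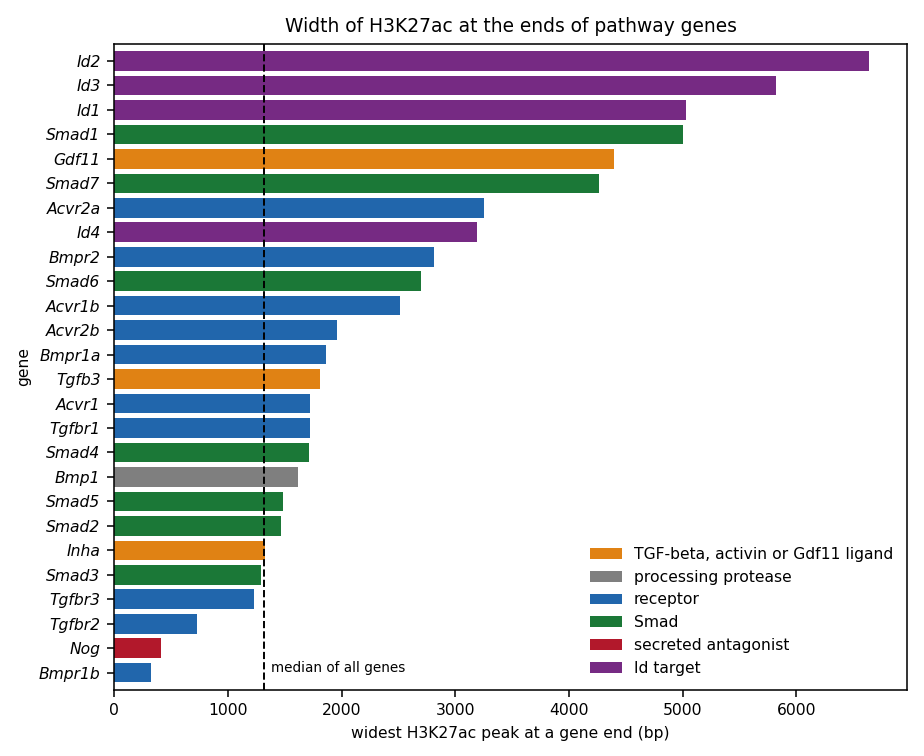
Width in bp (horizontal axis) of the widest H3K27ac peak at a gene end for the 26 members that have one, coloured by role, with the median of all 10779 acetylated genes (1317 bp) as a dashed line. Id2, Id3 and Id1 are the widest, and 5 of the 26 members (Bmpr1b, Nog, Tgfbr2, Tgfbr3 and Smad3) lie at or under the median.

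Over the 26 acetylated members the median width was 1836.5 bp, beside 1317 bp over 10779 acetylated genes, and 21 members lay above the latter. The 26 members with both marks had a widest ATAC peak per gene with a median of 487.5 bp (198 to 997 bp), and that of the 10 open members without H3K27ac had a median of 380.5 bp (224 to 759 bp), so the groups overlapped. The same medians over all genes were 467 and 293 bp.

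Annotated starts, which come with the gene's strand, were scored next. Of the 30 members in the promoter table, 22 had ATAC and 20 H3K27ac within 1 kb of a start, beside 62.3% and 51.6% of the 17491 genes in that table. At the far end alone, 1 member had ATAC (Gdf7, beside 6.81% of genes) and none had H3K27ac (beside 3.62%). All 9 receptors in the table had H3K27ac at a start, as did 4 of 5 Smads, 3 of 3 Id genes and 0 of 5 BMP-type ligands. ATAC lay at a start of 8 of 9 receptors, 5 of 5 Smads, 3 of 3 Id genes and 1 of 5 BMP-type ligands (Bmp6).

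**Figure D4:**
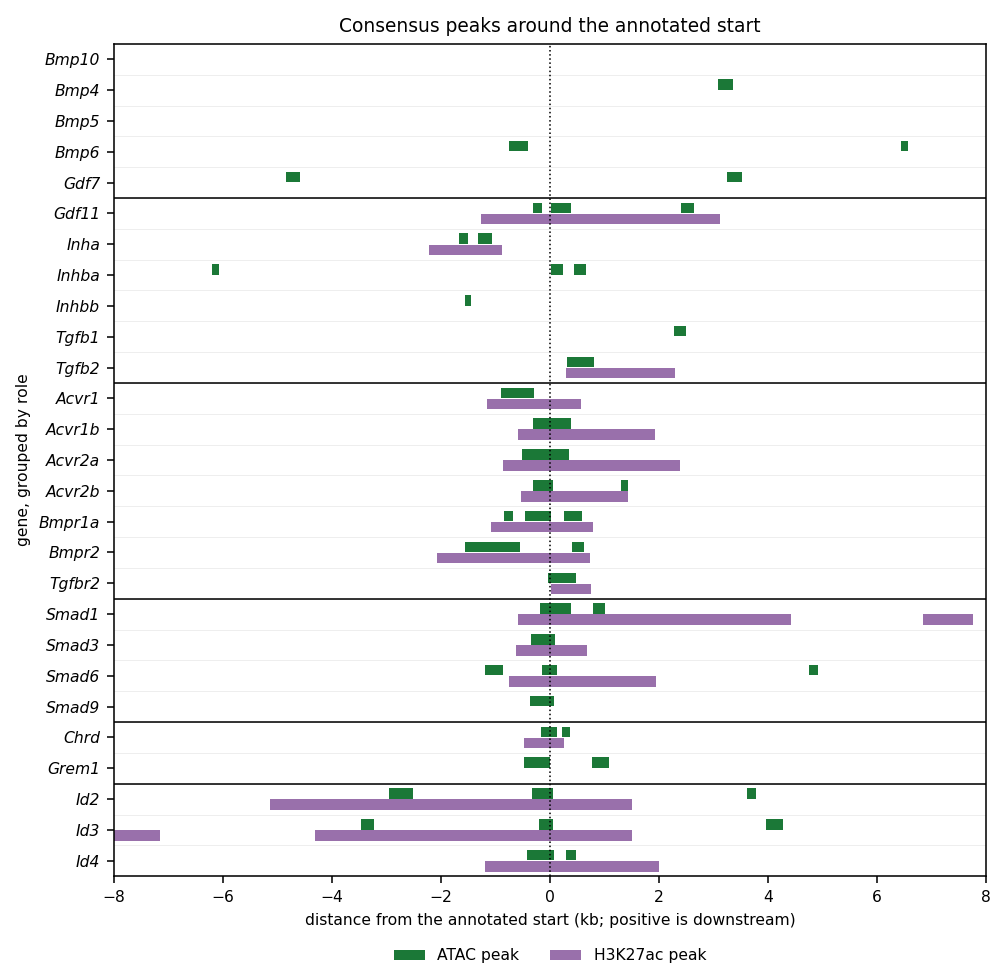
ATAC and H3K27ac peaks within 8 kb of the annotated start (horizontal axis, kb, downstream positive) for the 27 members with 1 start in the promoter table, grouped by role in the order of the text. Only peaks counted for that gene are drawn. The 5 BMP-type ligands at the top have no H3K27ac bar, and the bars of Id2 and Id3 reach from the start mostly upstream.

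Inside the genes, 25 of 45 members held an ATAC peak, beside 32.0% of all genes, and 11 held H3K27ac, beside 15.4%. At an end or inside, 29 members had H3K27ac, beside 55.5% of all genes. Members were longer than other genes, with a median span of 29639 bp beside 17170 bp, which leaves more room for a peak. The part of length in these counts was not tested. Smads and receptors held most of these ATAC peaks, 16 each of 47, and their median spans were 65018 and 89156 bp. Of the 47 peaks, 9 (19.1%) overlapped H3K27ac, beside 27.9% of those inside all genes.

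Distal elements, ATAC peaks over 1 kb from every gene end and assigned to the nearest end within 100 kb, were counted next. At least 1 was assigned to 37 of 45 members, beside 46.0% of all genes, and at least 1 acetylated element to 16, beside 15.4%. In all, 111 elements were assigned, 2.47 per member beside 1.11 per gene. Acetylated elements numbered 0.422 per member beside 0.249 per gene. Of the 111, 19 (17.1%) overlapped H3K27ac, beside 22.4% of the 24355 assigned over all genes. By place, 66 lay between genes and 43 inside the member itself. Some acetylated elements lay under the same H3K27ac peak that counted at the gene's end. These were the elements of Gdf11, Bmpr1a, Acvr2b, Smad2 and Id2, and 1 of the 2 at Id3. The acetylated element of Tgfb2 lay 311 bp from its annotated start, and Inhba had open elements 21 and 439 bp from its own. The distal counts thus include elements close to starts or joined to acetylated ends. The share with H3K27ac was 2 of 25 at BMP-type ligands, 3 of 32 at Smads, 4 of 19 at receptors and 5 of 17 at Id genes.

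Some members had many open elements. Smad6 had 13, a number reached by 0.219% of genes, and only 1 of them, 485 bp wide at chr9:64066737-64067221 and 44894 bp from the nearest end, was acetylated. Bmp7 had 9, reached by 0.964% of genes, and none was acetylated. Of the 211 genes with at least 9 elements, 35 (16.6%) had none acetylated. Gdf6 had 7 with 1 acetylated, 552 bp wide and 73546 bp away at chr4:9770551-9771102. Id2 had 6 with 1 acetylated, Id3 had 5 with 2 and Id4 had 3 with 2, at midpoints 24646 and 33201 bp from its ends. Id1 had 3, none acetylated. The acetylated elements were the wider ones, with a median of 331 bp over 19 beside 167.5 bp over the other 92, much as over all genes (286 and 155 bp). The nearest end need not mark the gene that an element acts on.

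Other genes of the pathway, a list of 71, also differed by role. Of 15 intracellular regulators, such as the corepressors Ski and Skil and the ubiquitin ligases Smurf1 and Smurf2, 14 had both marks at an end (93.3%, beside 47.8% of all genes). The exception, Nedd4l, had 14 ATAC peaks and 5 H3K27ac peaks inside it. Of 16 other ligands 9 were open and 4 acetylated (Amh, Gdf1, Gdf9 and Mstn). The first 3 of these have another gene's end within 1 kb of their own. Of 10 other receptors or coreceptors 6 were open and 5 acetylated, of 20 other antagonists or modulators 12 and 8, and of 10 other targets 9 and 4. Over all genes 60.4% were open and 49.3% acetylated. The other receptors or coreceptors thus lay near all genes in both marks, unlike the receptors among the members. The antagonists or modulators lay near all genes in ATAC and somewhat below them in H3K27ac. Of these 71 genes the most acetylated distal elements were assigned to Map3k7, which encodes the kinase TAK1, and Zeb1, with 6 each, then Nedd4l with 5. Ski, Zeb2, Gadd45b and Tgfbi had 3 each. At the targets Msx1 and Msx2 an open end went without H3K27ac, unlike at the Id genes. The 4 acetylated other targets, Hey1, Pmepa1, Ccn2 and Gadd45b, had both marks at an end, as the Id genes did. Hey1 has another gene's end within 1 kb of its own.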

How the data were processed

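ATAC-seq, H3K27ac ChIP-seq and input DNA were made from 2 samples each. Per the labels' protocols, libraries had at most 15 PCR cycles and fragments up to about 600 bp. Per the submitters' processing notes, cutadapt 1.18, Bowtie2 2.3.5.1, MACS2 and bedtools were used with mm10. How the consensus was formed, and thresholds, are not given in the sources used here. Each deposited list gives the position of every peak in bp, without any signal or score. The input DNA was not analysed here.

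Peaks on assembled chromosomes (43652 ATAC, 19924 H3K27ac) were scored with Python 3.11.15, pandas 2.3.3 and numpy 2.4.6 against RefSeq spans of GRCm38.p6, the assembly of mm10, and are printed counted from 1. The gene table gives spans without exons; starts and strand come from the promoter table. Overlap means at least 1 shared bp. Peaks inside a gene have their midpoint in its span and touch neither of its own end windows. The counting was tested on simulated peaks. Members, lists and rules were chosen with earlier results of these data known. All members are described. Of other pathway genes, those with the most acetylated distal elements are named by rule, with ties, and others as examples chosen after their values were seen; 1 of the 71 was matched through a synonym. Alternatives changed the window, assignment distance, overlap, peak width and gene set.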

Additional observations from a re-analysis of the deposited data

How the results depend on the processing

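Peak lists without scores limit these results: the depth of each sample is unknown, so an absent peak means only that none was called. No paired analysis was possible because the deposited lists hold no values per replicate, and for the same reason no replicate could be left out. Of 33 alternative counts over the members, 28 lay within 1.5 times the reported count. With only the wider 50% of each list, members with a peak inside the gene numbered 14 for ATAC (31.1%) and 3 for H3K27ac (6.67%), beside 3935 of 21883 and 1769 of 21883 genes (8.08%). For H3K27ac the members' share then lay below that of all genes, and no longer above it. Distal elements numbered 41, of which 10 were acetylated. Over all genes the same setting gave 0.395 elements per gene, of which 0.108 were acetylated. With annotated starts only, fewer members were scored, and 22 of 30 were open (73.3%, beside 62.3% of genes). The open members also changed, as Gdf7, Inha and Bmpr1b lost ATAC and Tgfb2, Inhba and Chrd gained it. No BMP-type ligand had H3K27ac at an end under windows of 0.5 and 2.5 kb, the wider 50%, starts only, or ends apart from other genes. The wider 50% left 8 of 11 receptors acetylated, without Tgfbr2 and Bmpr1b, and 0 of 4 antagonists. A window of 2.5 kb made Inhba, Inhbb, Tgfb1 and Chrd open and Chrd acetylated, and 0.5 kb lost ATAC at Gdf7, Inha and Nog. The 6 members that share a window with another gene's end were Acvr1, Acvr2a, Bmp1, Bmp6, Inha and Tgfb1. Without them 31 of 39 members were open and 22 acetylated, beside 52.9% and 41.0% of genes whose ends lie apart. Assignment within 50 kb and 500 kb gave 88 and 136 elements, 18 and 26 of them acetylated. With a window of 2.5 kb there were 98 elements, 13 of them acetylated. Over all genes that window gave 0.977 elements per gene, of which 0.199 were acetylated.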

Other observations

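Of the 20 H3K27ac peaks assigned to members as distal, 9 lay inside the member, and 6 of those overlapped no ATAC peak, while 9 of the 11 between genes did overlap one. Over all genes, 48.4% of 5181 such peaks inside genes and 50.6% of 2806 between genes overlapped ATAC. The members' counts are small, and nothing is read from the difference. The 6 without ATAC were in Acvr2a, Bmp5, Bmpr1b, Smad1, Smad3 and Smad6 and ranged from 329 bp in Smad3 to 1055 bp in Smad6. A separate Smad1 peak of 926 bp lay 6839 bp downstream of the start, past the end of the broad one.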
